A study of Mus musculus with 4 samples.

Results

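Endothelial junction genes were followed in single cells of the mouse aorta. They are 10 genes of the 18767 in the deposited table, chosen by name (Cdh5, Pecam1, Cldn5, Esam, Ocln, Tjp1, F11r, Jam2, Cdh13 and Pcdh7). The choice was made with their levels, their spread over cells and their change between the genotype labels already known, so these values are given as a description, and there was no threshold that a gene had to pass. Cells came from 4 libraries, s001 and s002 labelled Jag1 ECKO and s003 and s004 labelled Jag1 ECWT. The study used male C57BL/6J mice, 1.5 to 3 months old. Jag1 ECKO mice carry floxed Jag1 alleles and a tamoxifen-inducible Cre driven by the promoter of Cdh5, which is also a gene described here, whereas control mice carry the floxed alleles without the Cre (Jag1 fl/fl Cdh5+/+). Tamoxifen was given at 2 mg per day for 5 days. Single cells were freed from the aorta by enzymes, and live cells with CD31 (the protein of Pecam1) and without CD45 on their surface were sorted into plates and sequenced by SORT-seq. The number of animals behind each library is not given in the sources used here, so p-values measure only the spread between these libraries, which may be technical.

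Endothelial cells (EC) hold together through adherens junctions, in which VE-cadherin (Cdh5) binds its like on the next cell and is tied to actin by catenins, and through tight junctions, in which claudins, occludin and junctional adhesion molecules (JAM) are tied to the cytoskeleton by ZO proteins. PECAM-1 and ESAM are immunoglobulin-type adhesion proteins of the same contacts. T-cadherin (Cdh13) has a lipid anchor in place of the cytoplasmic tail that binds catenins, and Pcdh7 is a protocadherin, from a branch of the cadherin family best known from the nervous system. In arteries these contacts control the passage of solutes and leukocytes and respond to blood flow.

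After cells with more than 1200 genes were kept, 824 of 991 cells remained (202, 236, 140 and 246 in s001 to s004), with 859280 to 1779042 counts per library and a median of 4212 to 6517.5 counts per cell. Endothelial markers other than the junction genes were detected in every library (13 of 13, summed level 8421 to 9526 CPM, counts scaled to 1000000 in all), and leukocyte markers summed to 0.984 to 10.7 CPM. In clusters made without 168 junction genes, 794 cells were EC-like and 30 were fibroblast/VSMC-like, VSMC being vascular smooth muscle cells (8, 12, 3 and 7 cells in s001 to s004). VSMC markers summed to 3318 and 1571 CPM in s001 and s002 and to 410 and 1255 CPM in s003 and s004. One EC-like cluster led by immediate early genes held 55 of its 63 cells from s001, where immediate early genes summed to 2316 CPM against 883 to 1087 CPM elsewhere. Jag1, the deleted gene, went against the labels. It was at 156 and 75.1 CPM in s001 and s002 and at 32.0 and 27.1 CPM in s003 and s004 after TMM scaling (log2 fold change 1.96, SE 0.37, adjusted p = 0.428 by edgeR), so the groups below are called by their labels only. SORT-seq reads the 3′ end of a transcript, and where the floxed part of Jag1 lies is not given in the sources used here. If it lies outside the counted end, this level does not check the deletion.

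Pecam1 was by far the most abundant of the 10 genes and the steadiest. Its level was 4785, 4509, 4776 and 4749 CPM in s001 to s004 (4705 ± 131, SD, n = 4), which ranked it 12 of 18767 genes. The 4 libraries differed by at most 1.06 times. The sort selected cells by the protein of this gene, so its presence in nearly every cell was partly set by the gate. SORT-seq counts 1 tag at the 3′ end of each transcript, so levels of different genes were compared as CPM without division by gene length.

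A group of 6 genes followed at far lower levels. Cdh13 was at 469, 590, 481 and 438 CPM in s001 to s004 (495 ± 65.9, SD, n = 4). Esam was at 510, 371, 479 and 498 CPM (465 ± 63.6). Cdh5 was at 448, 306, 384.04 and 422 CPM (390 ± 61.9). In Esam and Cdh5 alike, s002 was the lowest library, and it was the highest in Cdh13, so the spread did not follow the labels. Cldn5, the main claudin of vascular endothelium, was at 472, 325, 428 and 298 CPM (381 ± 83.1). F11r, which encodes JAM-A, was at 326, 346, 385 and 354 CPM (353 ± 24.7). Jam2, which encodes JAM-B, was at 396, 254, 422 and 308 CPM (345 ± 77.8). For Cldn5 and Jam2, 1 library of each label was high and 1 was low.

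The remaining 3 genes were lower. Tjp1, which encodes the scaffold ZO-1, was at 156, 116, 155 and 172 CPM (150 ± 23.4, SD, n = 4). Pcdh7 was at 124 and 108 CPM in s001 and s002 and at 50.04 and 44.9 CPM in s003 and s004 (81.7 ± 40.1), and was the only gene of the 10 in which the libraries of the 2 labels formed separate pairs at a distance. Ocln, the gene of occludin, was at 15.7, 19.7, 24.4 and 18.8 CPM (19.7 ± 3.60), from 100 counts in all.

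**Figure D1:**
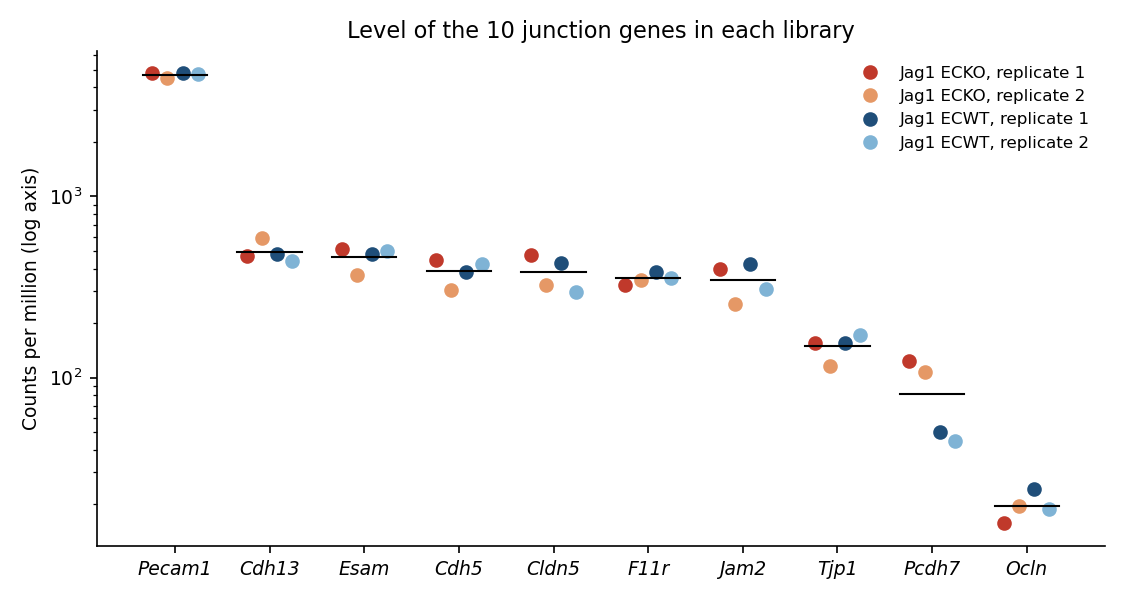
Level of each junction gene in each library, in CPM on a log axis. Points are the 4 libraries and the black line is their mean. Pecam1 sits near 4705 CPM, 6 genes lie between 345 and 495 CPM, and Pcdh7 alone has its red and orange points well above its blue ones.

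The order of the levels held only in part. Pecam1 was above Cdh13, Esam above Cdh5, Jam2 above Tjp1, Tjp1 above Pcdh7 and Pcdh7 above Ocln in 4 of 4 libraries. Cdh13 was above Esam in 2 of 4, Cdh5 above Cldn5 in 1 of 4, Cldn5 above F11r in 2 of 4 and F11r above Jam2 in 2 of 4, so these neighbours did not differ beyond the spread over libraries. The coefficient of variation over the 4 libraries was 2.79% for Pecam1 and 7.01% for F11r. It was between 13.3% and 15.9% for Cdh13, Esam, Tjp1 and Cdh5, 18.3% for Ocln, 21.8% for Cldn5, 22.6% for Jam2 and 49.1% for Pcdh7. The median over the genes tested between labels was 20.8%, and 12.6% over those at 100 CPM or more.

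Within their families the genes differed in how far they stood alone. Cldn5 made up 77.4% ± 3.67 (SD, n = 4) of the counts of the 16 claudins in the table. Of the 22 classical and related cadherins, Cdh13 held 52.6% ± 5.89 and Cdh5 41.6% ± 7.08, and the next, Cdh11, 1.86%. Cdh2, the gene of N-cadherin, which EC also use, was at 2.80 CPM. Among 7 JAM and related immunoglobulin genes, Esam held 39.1%, F11r 30.0% and Jam2 28.8%, whereas Jam3 held 1.32%. Of the 4 MARVEL genes listed, Ocln held 8.996% ± 2.60 and Marveld1 88.3%. Marveld2 and Marveld3 were below Ocln, at 2.59% and 0.0704%. Pcdh7 held 26.6% ± 12.5 of the counts of 52 protocadherins, the highest share on average, and Pcdh19 16.7%. In s003 and s004, however, Pcdh19 was at 54.7 and 53.6 CPM, above Pcdh7.

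The share of cells with a count was compared after each cell was thinned to 2500 counts, which kept 189, 234, 132 and 237 cells in s001 to s004 and left out 13, 2, 8 and 9. Pecam1 was found in 99.3% of thinned cells (mean of 4 libraries) and Ocln in 4.46%. Esam was found in 63.7%, Cdh5 in 59.5%, F11r in 56.4%, Cdh13 in 55.2%, Jam2 in 50.9%, Cldn5 in 46.4%, Tjp1 in 29.0% and Pcdh7 in 12.7%. At each cell's own depth the shares were higher, for example 82.2% for Cdh5, 57.4% for Cldn5 and 22.9% for Pcdh7. A thinned cell held counts of a median of 5 of the 10 genes in every library, and 1 cell, in s001, held none.

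Genes at like levels were spread over the cells in different ways. The variance over the mean of the thinned counts is 1 if cells differ by sampling alone. It was 1.19 for Cdh5 and 1.18 for F11r (means of 4 libraries), and their shares of positive cells were 0.960 and 0.951 of the share that sampling alone gives. Esam had a ratio of variance to mean of 1.29. At nearly the same level the ratio was 2.47 for Cldn5, 1.91 for Cdh13 and 1.86 for Jam2. Their shares of positive cells were 0.737, 0.787 and 0.846 of the sampling share, so more cells lacked the transcript and others held many. The median of 580 genes at 200 to 1000 CPM was 1.30. Of these genes 76.7% had a higher ratio than Cdh5 and 81.7% a higher one than F11r, but 5.00% a higher one than Cldn5. Among 2626 genes at 50 to 200 CPM (median 1.17), Pcdh7 at 1.43 had 5.83% above it and Tjp1 at 1.26 had 20.8%. By library, Pcdh7 was at 1.57 and 1.85 in s001 and s002 but at 1.16 and 1.13 in s003 and s004. In EC-like cells only, the mean ratio of Pcdh7 was 1.36. The ratio of Pecam1, 2.64, lay near the median of 2.20 of the 103 genes over 1000 CPM. The ratio of Cldn5 was highest in s001, at 3.69, and lowest in s003.

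**Figure D2:**
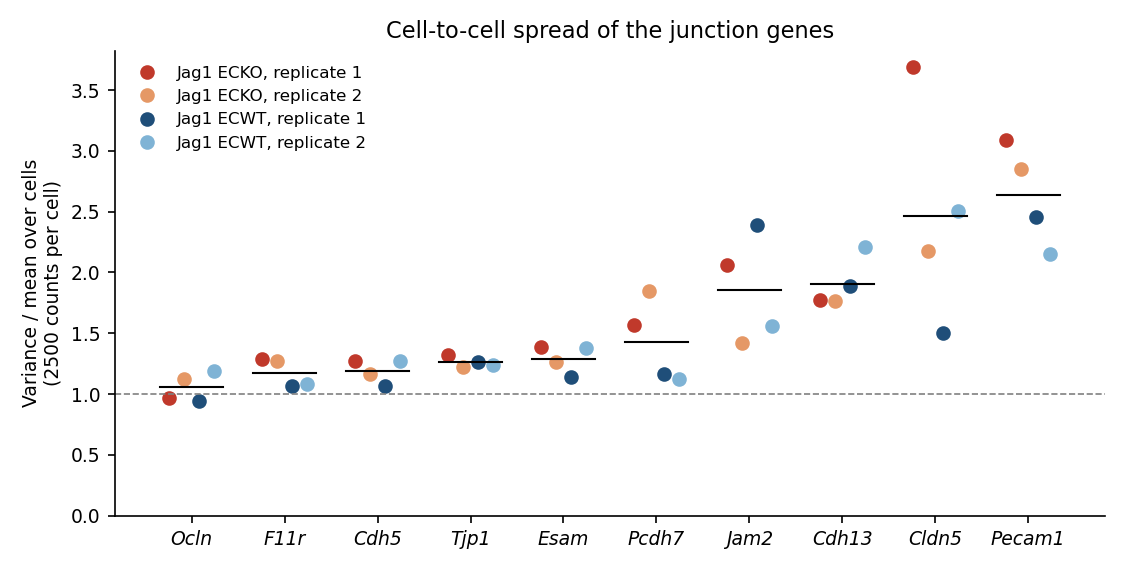
Variance over mean across cells for each junction gene, in cells thinned to 2500 counts. Points are the 4 libraries, the black line is their mean and the dashed line is the value of 1 that sampling alone gives. Cdh5 and F11r lie close to 1, whereas Cldn5, Cdh13 and Jam2, at similar levels, lie between 1.86 and 2.47 on average.

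Cldn5 is shown with its promoter because its level differed so far between kinds of EC. It is a gene of 1 exon, 1.4 kb long, at chr16:18776847-18778262 on the plus strand of GRCm38. The 250 bases before its start, chr16:18776597-18776846, plus strand, are given from RefSeq (GRCm38.p6) in lower case.

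Cldn5: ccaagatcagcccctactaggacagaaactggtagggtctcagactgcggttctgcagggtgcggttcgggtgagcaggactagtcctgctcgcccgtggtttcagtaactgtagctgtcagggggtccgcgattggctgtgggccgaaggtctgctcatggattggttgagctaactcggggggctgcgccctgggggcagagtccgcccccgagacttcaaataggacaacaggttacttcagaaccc

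No letters are in capitals because neither of the 2 motifs searched on both strands was present in this window. The core of ETS factor sites, GGAA, was found in 93.4% of 32851 such windows, and the site of the Notch effector RBPJ, TGGGAA, which contains the former, in 21.6%. Sequences of this kind were matched for F11r, Pcdh7, Tjp1, Ocln and Cldn5. None of their windows held TGGGAA.

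Across the 13 EC-like clusters Cldn5 had a wide range. Only that of Pcdh7 was wider (53.3 times), with a lowest cluster of 2 counts in 63 cells. Cldn5 was at 22.6 CPM (12 counts in 85 cells) in the cluster led by Sfrp2, Thbs1 and Gdf6. It was at 1070 CPM in the 22 cells led by Slc6a6, Gpihbp1 and Igfbp3, a ratio of 47.4. The high level was uneven over libraries, with 44 counts in 5 cells of s001, 24 in 4 cells of s002, 20 in 11 cells of s003 (473 CPM) and 15 in 2 cells of s004. The low level was found in every library, at 0, 12.6, 16.4 and 30.5 CPM in s001 to s004. Thinned to equal depth, 3.57% of the cells in the Sfrp2 cluster held Cldn5 (exact 95% interval 0.743 to 10.1%). Of the 30 fibroblast/VSMC-like cells, 3.33% held it (0.0844 to 17.2%). Whether counts in those cells came from EC material in the same wells was not tested. Their median depth before thinning was 7603.5 counts against 5593. The cluster led by Igfbp5, Ret and Fxyd6 was at 862 CPM, with 757, 945 and 833 CPM in s002, s003 and s004, and 77.6% of its thinned cells held the gene (64.7 to 87.5%). In the 32 cells of the cluster led by Lrg1, Fabp4 and Pde2a, libraries differed. The 18 cells of s001 held 2 counts of Cldn5 and the 9 cells of s002 held 42. The cluster led by Sfrp2 had Cdh5 at 369 CPM, Esam at 397 CPM and Pecam1 at 4081 CPM.

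Jam2 and Cdh13 had patterns of their own. Jam2 was highest in the cluster led by Slc6a6, Gpihbp1 and Igfbp3, at 1070 CPM, followed by the cluster led by Lrg1, Fabp4 and Pde2a at 599 CPM (77 of its 106 counts from s001, 13 from the 9 cells of s002) and that led by Igfbp5 at 540.1 CPM, and lowest in that led by Coch, Adra2a and Fbln5 at 144 CPM. Cdh13 was at 875, 851 and 836 CPM in the clusters led by Fam84b, by Hbegf and by Cxcl1, and at 199 to 254 CPM in 4 clusters, led by Beta-s with Nr4a1, by Slc26a4, by Mid1 and by Sfrp2. In the cluster led by Cxcl1 it was at 720, 964, 891 and 561 CPM in s001 to s004, and in the Sfrp2 cluster at 111, 516, 213 and 226 CPM, without overlap. The Sfrp2 cluster was thus low in both Cldn5 and Cdh13, and the Cxcl1 cluster was high in Cdh13 with Cldn5 at 145 CPM.

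Cdh5, Esam and F11r varied least. Cdh5 lay between 339 and 572 CPM in the EC-like clusters, a ratio of 1.68, Esam between 386 and 696 CPM, a ratio of 1.80, and F11r between 203 and 451 CPM, a ratio of 2.22. The highest cluster was 1.41 times the median cluster for Cdh5, 1.49 times for Esam and 1.26 times for F11r. Over 581 genes at 200 to 1000 CPM the median of this ratio was 1.40, so Cdh5 and Esam were not steadier than most. Tjp1 was between 120 and 291 CPM. Pecam1 was at 2442 and 2473 CPM in the Slc6a6 and Lrg1 clusters and up to 6113 CPM in the cluster led by immediate early genes, so the 2 clusters highest in Cdh5 were the lowest in Pecam1. These 2 clusters held 22 and 32 cells. In the genome, Cdh5 lies at chr8:104101625-104144511 on the plus strand and Pecam1 at chr11:106654217-106750628 on the minus strand (GRCm38). Ocln, with 100 counts in all, was too sparse to rank the clusters. Clusters were made from these same cells, so their levels are a description and no test was run.

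**Figure D3:**
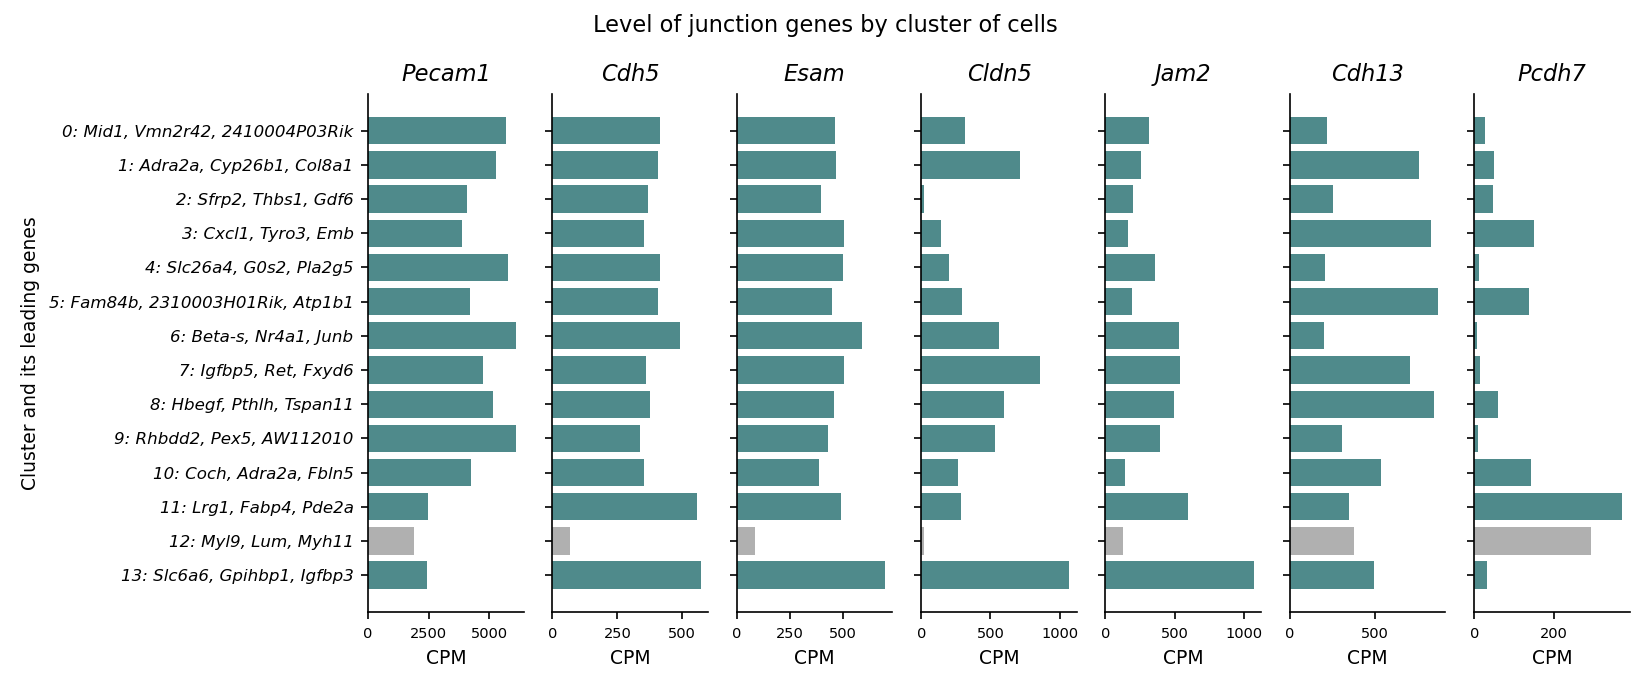
CPM of 7 junction genes in each of 14 clusters, which are named by their 3 leading genes and were made without the junction genes. Each panel has its own axis from 0, and the fibroblast/VSMC-like cluster is in grey. Over the EC-like clusters Cdh5 lies between 339 and 572 CPM and Esam between 386 and 696 CPM. Cldn5 is at 22.6 CPM in cluster 2, and Pcdh7 peaks in clusters 11 and 12.

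Not all of the 10 genes were endothelial in these data. In the fibroblast/VSMC-like cells Cdh5 was at 68.6 CPM against 398 in EC-like cells, Cldn5 at 21.7 against 383, Esam at 86.7 against 474, and Jam2 at 130 against 337. Ocln had 0 counts in these 30 cells against 20.5 CPM in EC-like cells, 10.6% of which held a count at their own depth. After thinning it was found in 0% of these cells (0 to 11.6%) and in 4.46% of EC-like cells (3.11 to 6.18%). The difference in Ocln was not tested. Pecam1 was at 1893 CPM there, which the gate on its protein requires in part, and how much of this came from EC material in the same wells was not tested. Cdh13 was at 379 against 511 CPM and Tjp1 at 105 against 149 CPM. Pcdh7 went the other way, at 293 CPM against 71.3 CPM, and was found in 30.0% of thinned fibroblast/VSMC-like cells (14.7 to 49.4%) and in 12.7% of EC-like cells (10.4 to 15.3%).

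Pcdh7, a gene of 415.3 kb at chr5:57717967-58133230 on the plus strand of GRCm38, was also concentrated within EC. It reached 373 CPM in the 32 cells led by Lrg1, Fabp4, Pde2a and Nr2f2, the last a transcription factor of venous EC, where 58.6% of thinned cells held it (38.9 to 76.5%). It was 150 CPM in the cluster led by Cxcl1, with 124, 177, 124 and 129 CPM in s001 to s004. In the cluster led by immediate early genes it was at 6.99 CPM (2 counts in 63 cells). Of the cells in the Lrg1 cluster, 18 and 9 belonged to s001 and s002, and 3 and 2 to s003 and s004. These cells gave 31.0% and 10.4% of all Pcdh7 counts in these first 2 libraries, and 13.95% and 1.49% in the others. The fibroblast/VSMC-like cells gave another 27.8%, 19.3%, 0% and 13.4%.

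To ask how a deletion of Jag1 in EC relates to each gene, counts were summed per library and the 2 labels set against each other in edgeR (quasi-likelihood test, Benjamini-Hochberg adjustment over 9730 genes). All 10 genes passed the filter on low counts. None passed an adjusted p of 0.05, and 0% of the 9730 genes did. At an unadjusted p below 0.05 there were 465 genes, or 4.78%, and by DESeq2 159 of 18508 at this level and 0 after adjustment. Both libraries labelled Jag1 ECKO lay above both others in 1 of the 10 genes and below them in 1, against 17.8% and 18.2% of all genes tested. The genes were named with this contrast known, so nothing is read from these counts.

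Of the 10 genes, 1 was at an unadjusted p below 0.05, Pcdh7. Its log2 fold change was 1.31 (SE 0.20), or 2.47-fold higher in the libraries labelled Jag1 ECKO, with both above both of the others, an unadjusted p of 1.65e-04, rank 4 of all genes tested, and an adjusted p = 0.385 by edgeR. The adjusted p depended on the libraries. It was 6.25e-05 without s001 and 1.81e-06 without s002, fits in which the lone library is assumed to vary like the others, and 1.00 without s003 or s004, with fold changes of 1.26 to 1.36 on the log2 scale. Without a filter on low counts it was 1.11e-04.

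The difference was also taken without the clusters highest in Pcdh7. In EC-like cells only, Pcdh7 was at 95.9, 94.6, 51.0 and 40.3 CPM in s001 to s004 (log2 fold change 1.10, SE 0.22, adjusted p = 0.921). Without the Lrg1 cluster as well, a choice made after seeing the data, the log2 fold change was 0.85 (SE 0.27, adjusted p = 0.914). Of 9 EC-like clusters with at least 10 cells of each label, Pcdh7 was higher in cells labelled Jag1 ECKO in 8, by a mean log2 difference of 0.61 after 5 CPM were added. Such one-sided counts were also found for other genes, as Cdh5, Esam, Tjp1 and Jam2 were higher in cells labelled Jag1 ECKO in 1 of the 9 each, with mean differences of -0.21, -0.19, -0.32 and -0.26. In the Fam84b cluster Pcdh7 was at 195 against 62.4 CPM, in the Cxcl1 cluster at 166 against 127 CPM. It was at 61.3 against 61.0 CPM in the Hbegf cluster. In the Slc26a4 cluster, the exception, it was at 3.42 against 18.6 CPM (1 against 7 counts). Other clusters also rested on few counts of Pcdh7. There were 6 against 5 in the Mid1 cluster, 3 against 2 in the Igfbp5 cluster and 3 against 0 in the cluster led by Rhbdd2. VSMC markers, pericyte markers (summed to 244 and 105 CPM against 85.0 and 82.4 CPM, of which Rgs5 132 and 21.4 against 0 and 0.670 CPM), fibroblast/VSMC-like cells and cells of the Lrg1 cluster were all more abundant in s001 and s002 than in s003 and s004. Pdgfrb, another pericyte marker, was at 85.6, 73.1, 78.0 and 75.7 CPM in s001 to s004, with overlap. Fibroblast markers summed to 1471, 2334, 1876 and 1817 CPM, also with overlap. Beyond these 2 fits the part of these cells in the difference was not tested. The share of thinned cells with Pcdh7 was 15.9% and 19.2% in s001 and s002 and 6.06% and 9.70% in s003 and s004, a difference of 9.67 percentage points (two-sided exact permutation test over libraries, p = 0.3333, the smallest that 2 against 2 allows).

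**Figure D4:**
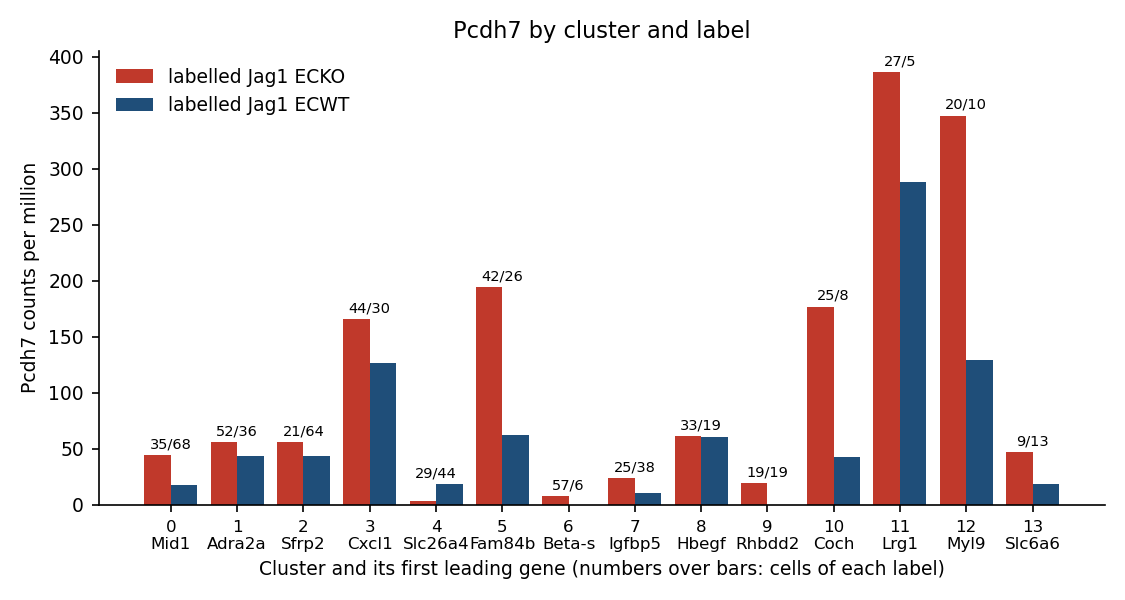
Pcdh7 in CPM in each cluster, pooled over the 2 libraries of each label. Numbers over the bars give the cells labelled Jag1 ECKO and Jag1 ECWT. The highest bars are in the clusters led by Lrg1 (27 and 5 cells) and by Myl9 (20 and 10 cells, fibroblast/VSMC-like).

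In the main fit on all 4 libraries, the other 9 genes differed by at most 0.26 on the log2 scale in either direction. Cdh13 was at a log2 fold change of 0.23 (SE 0.19) and Cldn5 at 0.15 (SE 0.22). Pecam1 was at -0.02 (SE 0.18) and Cdh5, whose promoter drives the Cre, at -0.10 (SE 0.20). F11r was at -0.11 (SE 0.17) and was the gene whose libraries did not overlap in the downward direction, at 321 and 366.7 against 378 and 366.8 CPM after TMM scaling, so that s002 and s004 were nearly equal. Esam was at -0.14 (SE 0.18), Jam2 at -0.16 (SE 0.23), Ocln at -0.21 (SE 0.35) and Tjp1 at -0.26 (SE 0.20). Their adjusted p-values by edgeR were between 0.901 and 0.991. Shares of thinned cells did not overlap between labels in 5 of the 10 genes. The share was higher with the label Jag1 ECKO in Pcdh7 and Cdh13, against 15.7% of all genes tested, and lower in Pecam1, Tjp1 and F11r, against 18.2%. By level only Pcdh7 and F11r did not overlap. Cdh13 was found in 52.4% and 66.7% of cells in s001 and s002 and in 49.2% and 52.3% in s003 and s004, with 1 pair of values nearly equal. Pecam1 was found in 98.4% and 99.1% against 100% and 99.6%. Tjp1 was found in 28.0% and 22.2% against 30.3% and 35.4%, and F11r in 54.5% and 53.8% against 59.1% and 58.2%. Jam2, at 51.9% and 40.2% against 65.9% and 45.6%, overlapped. For all 10 genes the exact permutation test over libraries gave p = 0.3333 or more, as it must with 2 against 2. The median over the 10 log2 fold changes was -0.11, against -0.001 over all genes tested.

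**Figure D5:**
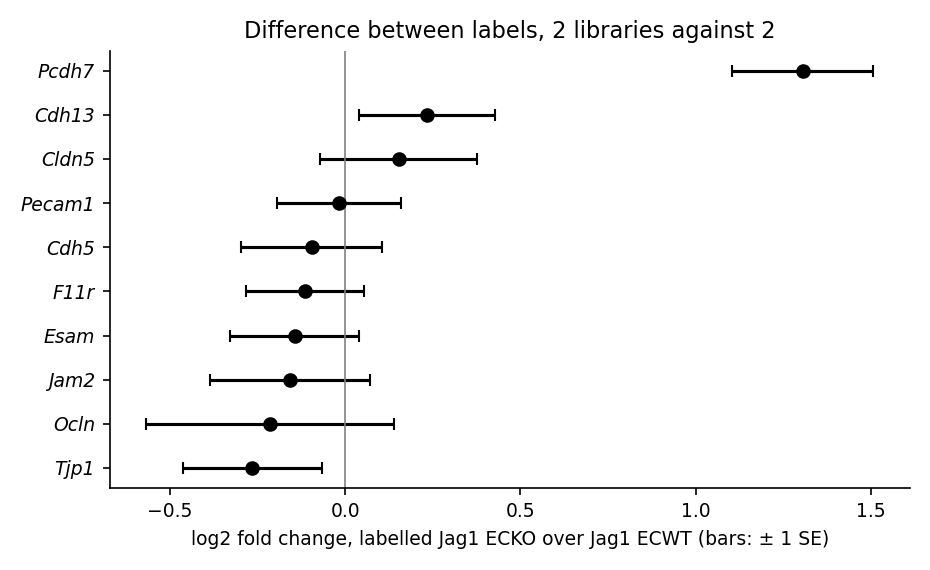
Log2 fold change of each junction gene between labels, with bars of 1 standard error from edgeR, for 2 libraries against 2. Pcdh7 stands at 1.31 and the other 9 genes lie between -0.26 and 0.23.

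Other genes of cell contacts were taken as 158 listed genes in the table, 105 of which could be tested. None passed an adjusted p of 0.05, while 3 were higher and 1 was lower at an unadjusted p below 0.05 (Ajuba, Fat1 and Bcam, and Celsr2), which is 3.81% of those tested against 4.78% of all genes, and their median log2 fold change was 0.006. Of the catenins that link cadherins to actin, Ctnnb1 was at 849 CPM, Ctnna1 at 287 CPM and Ctnnd1 at 222 CPM (means of 4 libraries), with log2 fold changes of -0.20, 0.10 and -0.16. Ptprb, which encodes the phosphatase VE-PTP that binds VE-cadherin, was at 3532 CPM, above every one of the 10 genes but Pecam1, with a log2 fold change of -0.11. Cgnl1, the gene of the tight junction protein paracingulin, was at 667 CPM and Lsr, which encodes a protein of tricellular contacts, at 155 CPM. Of gap junction genes, Gja4 (connexin 37) was at 330.0 CPM and Gja5 (connexin 40) at 155 CPM, whereas Gja1 (connexin 43) was at 5.95 CPM.

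The genes whose counts followed each junction gene most closely from cell to cell were found by the mean of the Pearson correlations in the 4 libraries, over 2015 genes and cells thinned to 2500 counts, as a description. Pecam1 had the closest neighbours, Cytl1 (r = 0.46), Clu (0.42) and Ptprb (0.39), which in EC-like cells only were at 0.37, 0.35 and 0.21. Cldn5 followed Stmn2 (0.29), Podxl (0.29) and Klk10 (0.27), and Cdh13 followed S100a6 (0.26), Plec (0.25) and Clu (0.23). The nearest genes of Cdh5, Esam, Tjp1, F11r and Jam2 reached at most 0.17. Among the 28 pairs of the 8 junction genes abundant enough, the highest was Pecam1 with Cldn5 at 0.18 and the median was 0.04, weak values that in sparse counts are no finding.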

How the data were processed

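The authors sorted cells into plates, made SORT-seq libraries, mapped the reads with STAR on GRCm38, and the deposited values are estimated counts for each gene in each cell, that is UMI numbers corrected for UMIs that coincide by chance, without normalization. Version, counting tool and use of strand are not given in the sources used here. Antisense genes overlap Cdh5, Cdh13 and Pcdh7 and have no row of their own in the table. Estimated counts were rounded to whole numbers, and cells with more than 1200 genes were kept, the minimum that the study's methods give. The study counts 991 cells past its filters, which is the number deposited, whereas this minimum left 824. CPM are counts scaled to a rounded total of 1000000 in a library or cluster. Plates share well barcodes by design. No doublet caller was run.

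Cells were clustered in Seurat 5.3.0 (R 4.3.3; 2000 variable genes, 12 principal components, resolution 2.3, 14 clusters) without 168 junction genes. Clusters were named from marker lists: markers had to reach 3 times the level outside the cluster (20 CPM added to both), with 6 needed from the fibroblast and VSMC lists for fibroblast/VSMC-like, and EC-like clusters kept at least 7 endothelial markers above a set share of their overall mean. Depth was evened by thinning each cell to 2500 counts. Library sums were tested with edgeR 4.0.16 (TMM, filterByExpr, quasi-likelihood, Benjamini-Hochberg), with DESeq2 1.42.0 as an alternative. Intervals on shares are exact (Clopper-Pearson, 95%) and cover counting error only. The genes and lists were chosen with earlier results of these data known. Genes named beside the 10 are those called (none), the 4 most abundant of each list, the 3 closest correlates, leading genes of clusters and cell type markers. One gene that this rule names is not reported here. Celsr2, Fat1, Ajuba, Cdh11, Cdh2, Jam3, Nr2f2 and Pkp4 were named after their values were seen. Positions are from GENCODE M21. Alternatives changed scaling, filter, tool, cells, depth and UMI correction, and left out each library in turn.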

Additional observations from a re-analysis of the deposited data

Results flagged for a closer look

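Cells left out for having at most 1200 genes entered only the alternative with all deposited cells, yet the junction genes were present in them. These 167 cells held 311363 counts in all, 70 of them from s001, and 3 counts would stand for 9.64 CPM. Pecam1 was at 4869 CPM, Cdh5 at 488 CPM, Esam at 469 CPM, Cdh13 at 382 CPM, Jam2 at 373 CPM, Cldn5 at 363 CPM, F11r at 340.4 CPM, Tjp1 at 145 CPM, Pcdh7 at 51.4 CPM and Ocln at 32.1 CPM (10 counts). Over the cells kept, pooled, the same genes were at 4678, 381, 453, 504, 326, 363, 351, 147, 83.2 and 19.4 CPM, in the same order of naming. By library, Cdh13 and Pcdh7 were lower and Ocln was higher in the shallow cells in each of the 4 (Pcdh7 from 1 to 10 counts and Ocln from 2 to 4 in a library), whereas Cdh5 was at 341 against 384.04 CPM in s003 and higher in the shallow cells of the other 3. No test was run.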

How the results depend on the processing

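No gene passed an adjusted p of 0.05 between labels, but without a filter on low counts 127 genes passed, 1 of them a junction gene, Pcdh7. Leaving out 1 library in turn gave 0 to 417 genes, 0 to 1 of the 10 junction genes (Pcdh7 without either library labelled Jag1 ECKO) and 0 to 2 of the other contact genes (Fat1 and Pkp4, without s002). The cause was not tested. The other alternatives called no gene. The median log2 fold change of the 10 genes lay between -0.13 and 0.01 and was above 0 without s002 (0.01) and after thinning (0.009). Pcdh7 and Cdh13 were above 0 and F11r, Ocln and Tjp1 below 0 in each of 15 alternatives. Pcdh7 lay at 0.85 to 1.42 and Cdh13 at 0.002 to 0.43. F11r lay at -0.21 to -0.015, Ocln at -0.46 to -0.04 and Tjp1 at -0.53 to -0.11. Genes that changed sign were Cdh5 (-0.34 to 0.11), Jam2 (-0.44 to 0.10), Esam (-0.33 to 0.03), Cldn5 (-0.08 to 0.39) and Pecam1 (-0.06 to 0.09). Of 150 fold changes of single genes, 12 moved by more than 1 SE. Shares of cells moved by more than 1 SD in 19 of 60 cases, all but 1 of them (Ocln in all deposited cells) with depth, and levels in 7 of 60, 6 of them without Rn45s and mitochondrial genes. Variance over mean moved in 18 of 60, and at the cells' own depth was 5.15 for Cldn5, 6.30 for Pecam1 and 3.22 for Pcdh7. No paired analysis was possible because no label links a library of one genotype to one of the other. With 2 libraries a label, 100 counts of Ocln and 1 cluster of 30 cells that are not EC, small differences were not detectable at this depth.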
